A study of Saccharomyces pastorianus with 18 samples.

Results

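The comparison set exponential growth in minimal medium against the fourth day of a wort fermentation in W34/70 9.7, a mutant of the lager yeast W34/70 (Saccharomyces pastorianus). It holds 6 of the 18 RNA-seq libraries of the series, chosen by their labels, with 3 libraries in each condition. Lager yeast is a natural hybrid in which the genomes of S. cerevisiae and S. eubayanus are both present, and the deposited table counts reads on 6600 features of the first and 5379 of the second. The study asked how transcript patterns of mutants with changed flavour differ between growth conditions.

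Both groups are labelled as the same mutant strain. W34/70 9.7 came from W34/70 cells that had been exposed to the Hsp90 inhibitor radicicol at 20, 40 or 100 µg/mL for 24 or 48 h and then selected on a phenylalanine analogue, either B2TA at 75 µg/mL or PFPA at 200 µg/mL. It is 1 colony that was re-streaked, so nothing here separates the mutant from its parent. The minimal medium group was propagated in 2% YPDM and inoculated at 1000000 cells/mL into 60 mL. The medium held 0.17% yeast nitrogen base, 1% dextrose, 1% maltose and 0.5% ammonium sulfate as the nitrogen source, with no amino acids. The cultures were harvested in exponential phase at 20 °C. The day 4 group was propagated for 2 days at 25 °C in 4% YPDM and pitched at 15000000 cells/mL into 10 mL of 10% wort that held 1 mM ZnSO4, at 13 °C, unshaken and under a water-trap airlock. Propagation medium, nutrients, zinc, temperature, oxygen access, cell density and growth phase all differ between the groups, so their parts in any difference cannot be told apart. Each group was grown in triplicate per the labels, and p-values measure the spread between those 3 cultures.

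A yeast cell that divides quickly spends much of its transcription on ribosomes, histones and enzymes that build amino acids, nucleotides and membranes. As sugar and other nutrients run out, yeast slows ribosome production, stores glycogen and trehalose, and makes heat shock and cell wall proteins. Lager fermentation adds low oxygen, under which S. cerevisiae replaces several proteins by hypoxic partners (cytochrome c, a cytochrome oxidase subunit, the translation factor eIF5A, HMG-CoA reductase) because heme and sterol synthesis need oxygen. Wort supplies maltose and amino acids, while cells in ammonium medium must make every amino acid themselves.

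Library totals ran from 16853583 to 19467656 counts in minimal medium and from 13824408 to 18470053 on day 4, so that 1 CPM, a count scaled to the library's size, stood for 13.3 to 20.2 counts. The day 4 libraries differed more among themselves, with a median SD of 0.27 log2 CPM per gene against 0.16 in minimal medium. Day 4 replicate 1 had almost no reads on S. eubayanus chromosome VII: 1417 counts over its 496 features, against 307904 and 396506 in the other day 4 libraries. Summed levels of genes with a copy on that chromosome therefore lack nearly all reads of that copy in day 4 replicate 1. In the same library MAL11 and MAL13 on S. cerevisiae chromosome VII had 0 counts. Further whole chromosomes stood 0.4 log2 or more from the other day 4 replicates. On the S. cerevisiae side these were chromosome I in replicate 2 (-1.05), replicate 1 (0.59) and replicate 3 (0.44), chromosome IV in replicate 2 (0.42), chromosome XII in replicate 1 (-0.87) and replicate 2 (0.50) and chromosome XVI in replicate 1 (-0.48), and on the S. eubayanus side chromosome II in replicate 3 (0.85) and replicate 2 (-0.55). No chromosome of a minimal medium library stood more than 0.07 from its replicates. Whether the day 4 cultures differed in karyotype was not tested. Many of the counts and values that change without a library are given beside the results below.

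**Figure D1:**
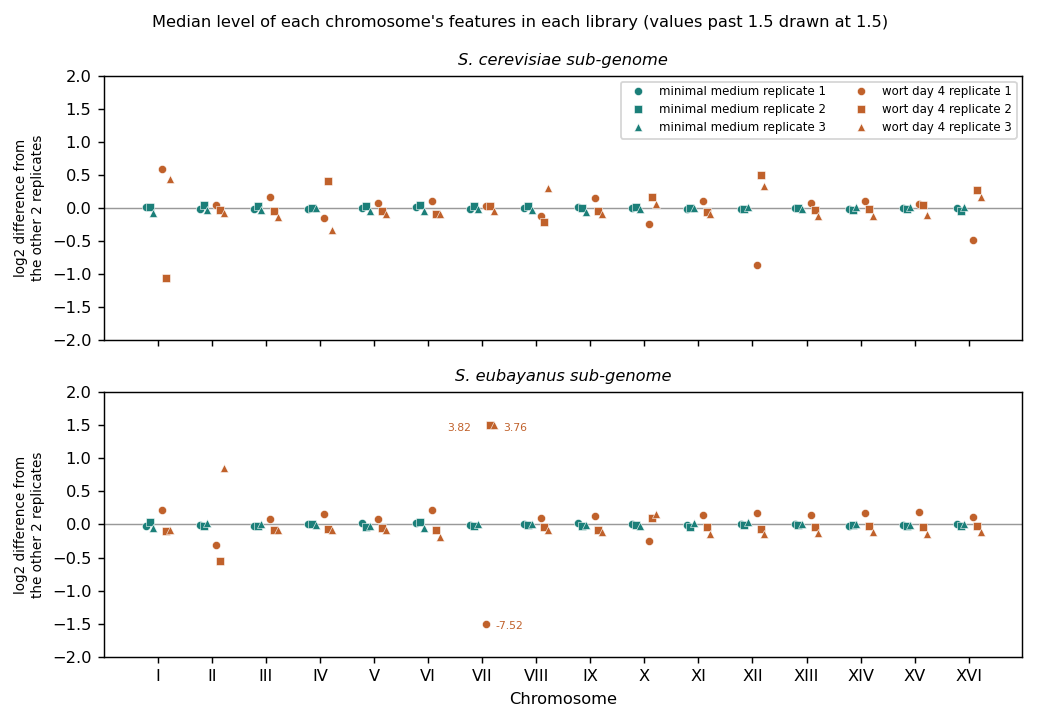
The vertical axis is the log2 difference between the median level of a chromosome's features in 1 library and in the other 2 libraries of its group, the horizontal axis lists the chromosomes of each sub-genome, and values past 1.5 are drawn at 1.5 with their number. Minimal medium libraries stay within 0.07 of 0, while S. eubayanus chromosome VII reaches -7.52 in day 4 replicate 1.

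With both copies of a gene summed by name, 6504 of 7568 gene names passed the filter on low counts, and 60.8% of them were called: 1913 (29.4%) were higher and 2039 (31.3%) lower in minimal medium than on day 4 at a Benjamini-Hochberg adjusted p under 0.05 in edgeR's quasi-likelihood test. The shares of 29.4% higher and 31.3% lower are the background for the list counts below. A change of 2-fold or more was called for 960 genes upward (14.8%) and 1355 downward (20.8%). The libraries of the groups did not overlap for 68.8% of genes, and the median log2 change over all genes tested was -0.03. Log2 changes are minimal medium over day 4 throughout, with their standard error (SE). With the copies apart, 10562 of 11979 features were tested and 52.8% called, 2659 (25.2%) as higher and 2916 (27.6%) as lower, and the groups did not overlap for 65.3%. Leaving out the 6 chromosomes on which a day 4 library stood apart gave 2380 higher and 2433 lower of 7866 features. S. eubayanus features took 32.6% ± 0.52 (SD, n = 3) of counts in minimal medium and 31.4% ± 1.44 on day 4, a difference of 1.20 percentage points that did not pass an exact two-sided permutation test (p = 0.3, with 0.1 the smallest p that 3 against 3 allows).

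Genes of the ribosome and of its assembly were higher in minimal medium almost without exception. Of 79 ribosome biogenesis genes 77 were higher, 73 of them 2-fold or more, with a median log2 change of 1.56. Of 138 cytosolic ribosomal protein genes 124 were higher and 3 lower, with a median of 1.12, and together they took 20.4% ± 2.88 of counts in minimal medium and 9.96% ± 1.85 on day 4. As each library is a bulk culture, more cells in a growing state and more such RNA per cell cannot be told apart. The assembly factor NOP15 stood at 339, 299 and 425 CPM in minimal medium and 69.1, 54.5 and 31.4 on day 4 (log2 change 2.78 ± 0.31, adjusted p = 0.00028). The nucleolar gene TMA23 had 68.1, 59.2 and 80.2 against 1.28, 9.71 and 2.63 CPM (log2 change 3.91 ± 0.66, adjusted p = 0.0016). The lowest minimal medium library of each gene was several-fold above the highest day 4 library, and without day 4 replicate 2 the change of TMA23 was 5.17. The ribosomal protein genes with the largest rise were RPL9A (1914, 2767 and 1927 against 411, 464 and 285 CPM, log2 change 2.51 ± 0.26, adjusted p = 0.00021) and RPL41A (2.23 ± 0.40). The 3 that were lower are RPS14B (-0.90), RPS9A (-0.75) and RPL22B (-0.54), each 1 of a pair of paralogs, and of the 3 calls 1 was left, that of RPS14B, without any 1 minimal medium library. SFP1, an activator of ribosome genes, was also lower in minimal medium, at 112, 87.7 and 99.4 against 213, 155 and 176 CPM (log2 change -0.86 ± 0.17, adjusted p = 0.0037).

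Genes that serve the ribosome were also higher in minimal medium. Of 28 subunits and factors of RNA polymerases I and III, which make ribosomal and transfer RNA, 19 were higher and 1 lower (median 1.11), led by RPC19 (2.03) and RPA34 (1.97). Of 32 translation factors 25 were higher and 1 lower (median 1.05). TIF11, the initiation factor eIF1A, rose to 709, 919 and 773 CPM from 192, 179 and 138 (log2 change 2.24 ± 0.20, adjusted p = 0.00013). HEF3, a second form of elongation factor 3, was the exception at 12.8, 13.2 and 14.4 against 71.4, 73.2 and 91.4 CPM (log2 change -2.55 ± 0.16, adjusted p = 4.5e-05). In mitochondria, 49 of 55 ribosomal protein genes were higher and 1 lower (median 0.82), and 17 of 24 protein import genes were higher and none lower (median 0.70). The small import chaperone TIM9 had 328, 484 and 325 against 80.7, 111 and 89.8 CPM (log2 change 2.01 ± 0.22, adjusted p = 0.00029). The lower member of the mitochondrial list was MRP8 (-1.68 ± 0.24), a gene that is on the list by its name.

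All 10 histone genes were higher in minimal medium, 8 of them 2-fold or more (median 1.49), and their share of counts was 1.34% ± 0.12 against 0.47% ± 0.08. HTA2, a gene for histone H2A, stood at 1514, 2057 and 1642 CPM against 267, 255 and 343 (log2 change 2.59 ± 0.21, adjusted p = 9.3e-05), and HHF1, for histone H4, at 1858, 2595 and 2064 against 469, 319 and 331 (log2 change 2.54 ± 0.23, adjusted p = 0.00014). For both genes every minimal medium library was over 3 times the highest day 4 library. Of 46 cyclin and DNA replication genes 34 were higher and 5 lower (median 0.64), with 2 lower without minimal medium replicate 3 and 3 without any other 1 library except day 4 replicate 3. The lowest member was RNR3, a ribonucleotide reductase subunit known for induction by DNA damage, at 7.34, 5.58 and 5.5 against 109, 106 and 86.3 CPM (log2 change -4.03 ± 0.19, adjusted p = 2.2e-05).

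**Figure D2:**
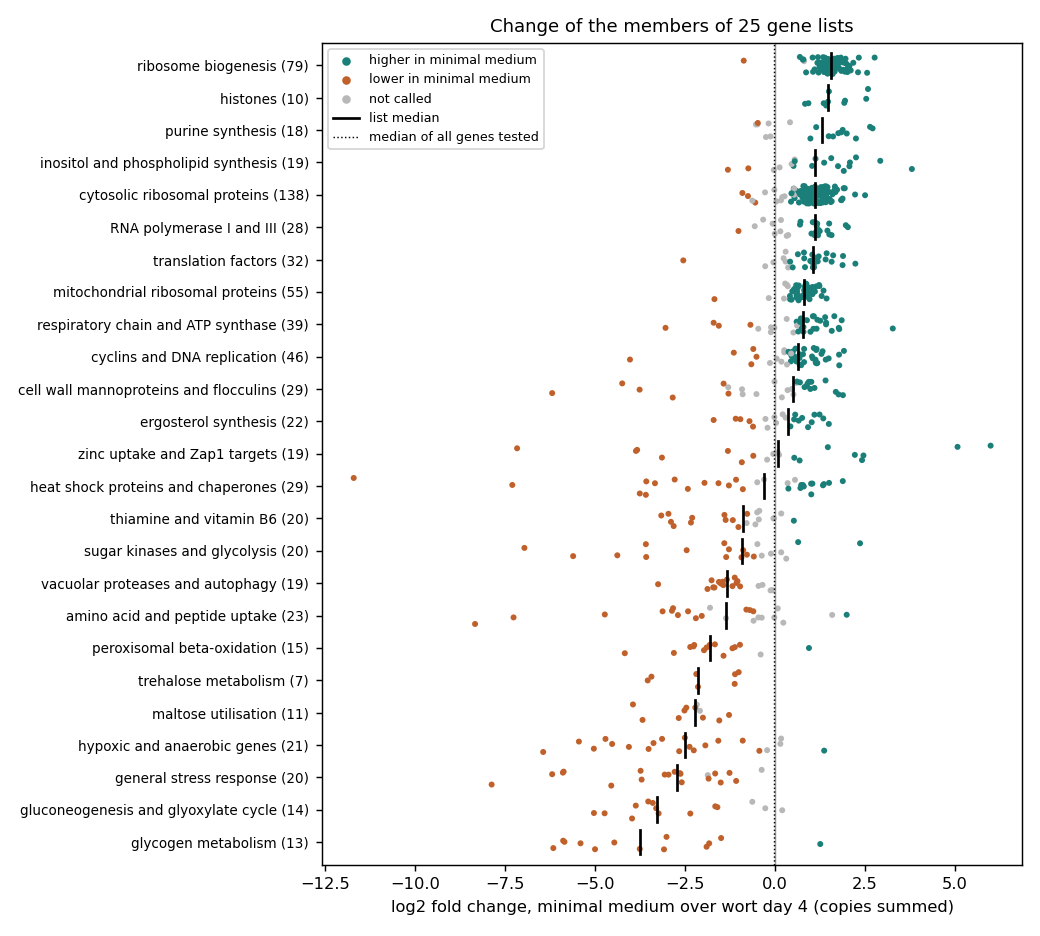
Each point is the log2 change of 1 gene, minimal medium over day 4, in 25 gene lists with the number of members tested in brackets, coloured by call, with the list median as a bar. Ribosome biogenesis, histone and purine lists lie to the right of the median of all genes (dotted, -0.03), and glycogen, gluconeogenesis, stress and hypoxic lists lie to the left.

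Genes for storage carbohydrates were low in minimal medium and high on day 4. All 7 trehalose genes (median -2.14) and 12 of 13 glycogen genes (median -3.76) were lower in minimal medium, each of them 2-fold or more. Glycogen synthase GSY2 stood at 63.7, 54.4 and 27.8 CPM in minimal medium and 3079, 1981 and 3566 on day 4 (log2 change -5.89 ± 0.42, adjusted p = 6.1e-05). The glycogen phosphorylase gene GPH1 had 107, 84.5 and 57.3 against 3877, 2423 and 4246 CPM (log2 change -5.40 ± 0.36, adjusted p = 5.4e-05). Enzymes for making and for breaking glycogen were on the same side, as were the branching enzyme GLC3 (-5.00), the debranching enzyme GDB1 (-4.46) and GAC1 (-6.16), which directs a phosphatase to glycogen synthase. Phosphoglucomutase, which links glucose-1-phosphate to glycolysis, split by isoform. The main isoform PGM2 was at 76.2, 69.6 and 44.6 against 3953, 2665 and 4366 CPM (log2 change -5.85 ± 0.33, adjusted p = 3.8e-05), whereas PGM1 was higher in minimal medium, 130.2, 126 and 139 against 47, 58.2 and 59.7 CPM (log2 change 1.26 ± 0.14, adjusted p = 0.00031). In the trehalose list the synthase subunits TSL1 (-3.54), TPS1 (292, 307 and 227 against 1399, 1004 and 1348 CPM, log2 change -2.18 ± 0.21, adjusted p = 0.00017) and TPS2 (-2.14) and the vacuolar trehalase ATH1 (-3.43) were all lower.

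Hexose transporter genes moved in opposite directions. Of 19 tested transporter and glucose-sensing genes 7 were higher and 8 lower. The list median of 0.43 changed sign without any 1 minimal medium library (-0.31 to -0.15) or without day 4 replicate 3 (-0.32). In each of those fits 20 members passed the filter, so the set of genes differed. With 19 tested, the median was 0.35 without day 4 replicate 1 and 0.49 without replicate 2. HXT7, a high-affinity transporter, was at 124, 145 and 124 CPM in minimal medium and 21.5, 12.2 and 7.74 on day 4 (log2 change 3.24 ± 0.35, adjusted p = 0.00025). Its neighbour HXT6 was near the detection limit in minimal medium, at 0.411, 0.584 and 0.533 CPM, and at 153, 146 and 412 on day 4 (log2 change -8.86 ± 0.60, adjusted p = 5.5e-05, or -8.18 without day 4 replicate 3). HXT6 and HXT7 are nearly identical in S. cerevisiae, so reads may be placed on either one, and the levels of HXT genes are uncertain for that reason. HXT4 was higher, 1322, 952 and 1102 against 199, 265 and 122 CPM (log2 change 2.52 ± 0.30, adjusted p = 0.00038). The low-affinity transporter HXT1 had 93.5, 73.3 and 112 CPM against 1.44, 1.58 and 19 (log2 change 3.71 ± 0.94, adjusted p = 0.01), with 5.94 when day 4 replicate 3, its highest day 4 library, was left out. HXT3, also of low affinity, had 872, 661 and 768 against 239, 162 and 729 CPM, which was not called (log2 change 1.03 ± 0.51, adjusted p = 0.12). Day 4 replicate 3 alone reached the minimal medium range, and without it HXT3 was called higher (1.94, adjusted p = 0.00069). A large part of the day 4 reads of HXT3 lay on an S. eubayanus fragment described with the copies below, and the S. cerevisiae copy alone had 848, 646 and 742 against 117, 62.4 and 462 CPM. Among regulators, the glucose repressor MIG2 was higher in minimal medium (123, 126 and 156 against 17, 10.3 and 5.71 CPM, log2 change 3.60 ± 0.37, adjusted p = 0.00021), while the low-glucose sensor SNF3 (-2.36 ± 0.14), the HXT repressor MTH1 (-1.55 ± 0.21) and the invertase gene SUC2 (-2.91 ± 0.32) were lower.

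Minimal medium held maltose as well as dextrose, but maltose genes were much lower there than in wort. Of 11 tested genes of the maltose list 9 were lower, all 2-fold or more (median -2.21), and the list took 0.19% ± 0.08 of counts in minimal medium and 1.69% ± 0.19 on day 4. All 11 were lower without day 4 replicate 1, the library with 0 counts on MAL11 and MAL13. The maltose permease MAL31 was at 771, 495 and 313 CPM against 7443, 7948 and 8923 (log2 change -3.94 ± 0.35, adjusted p = 0.00013). The maltases MAL32 (1266, 1003 and 547 against 4472, 5176 and 5871 CPM, log2 change -2.46 ± 0.32, adjusted p = 0.00051) and MAL12 (-2.51 ± 0.34) followed. The groups did not overlap for any of the 3, but MAL genes are a family of near-identical copies, so the split of reads between them is uncertain.

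Most glycolysis genes were lower in minimal medium, and isoforms of the same enzyme differed. Of 20 sugar kinase and glycolysis genes 13 were lower and 2 higher (median -0.90), and their share of counts was 3.74% ± 0.45 in minimal medium and 8.67% ± 1.55 on day 4. Hexokinase 1 (HXK1) stood at 290.1, 311 and 128 CPM against 14307, 8619.9 and 12618 (log2 change -5.61 ± 0.43, adjusted p = 8e-05), and hexokinase 2 (HXK2) at 1409.7, 1447 and 1286 against 298, 317 and 186 (log2 change 2.37 ± 0.23, adjusted p = 0.00019). The groups did not overlap for either isoform, and the isoforms moved in opposite directions. The other kinases GLK1 (-4.38) and EMI2 (-3.58) were lower. For glyceraldehyde-3-phosphate dehydrogenase, TDH1 was at 72.2, 72.8 and 48.4 against 5919.6, 7811 and 10411 CPM (log2 change -6.96 ± 0.34, adjusted p = 2.3e-05), while TDH3 was at 7813, 9038 and 6395 against 5979.8, 4184 and 4664 (log2 change 0.65 ± 0.21, adjusted p = 0.031). The call of TDH3 was lost, and the number of higher glycolysis genes fell to 1, with an adjusted p of 0.074 to 0.081, without minimal medium replicate 1 or 2 or day 4 replicate 2 or 3. Of the enolases, ENO1 was lower (921, 838 and 568 against 11082, 7671 and 9187 CPM, log2 change -3.59 ± 0.26, adjusted p = 7e-05) and ENO2 was not called (0.32 ± 0.21, groups overlapping). Pyruvate kinase CDC19 (-1.28 ± 0.31) and aldolase FBA1 (-0.93 ± 0.22) were lower by less.

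**Figure D3:**
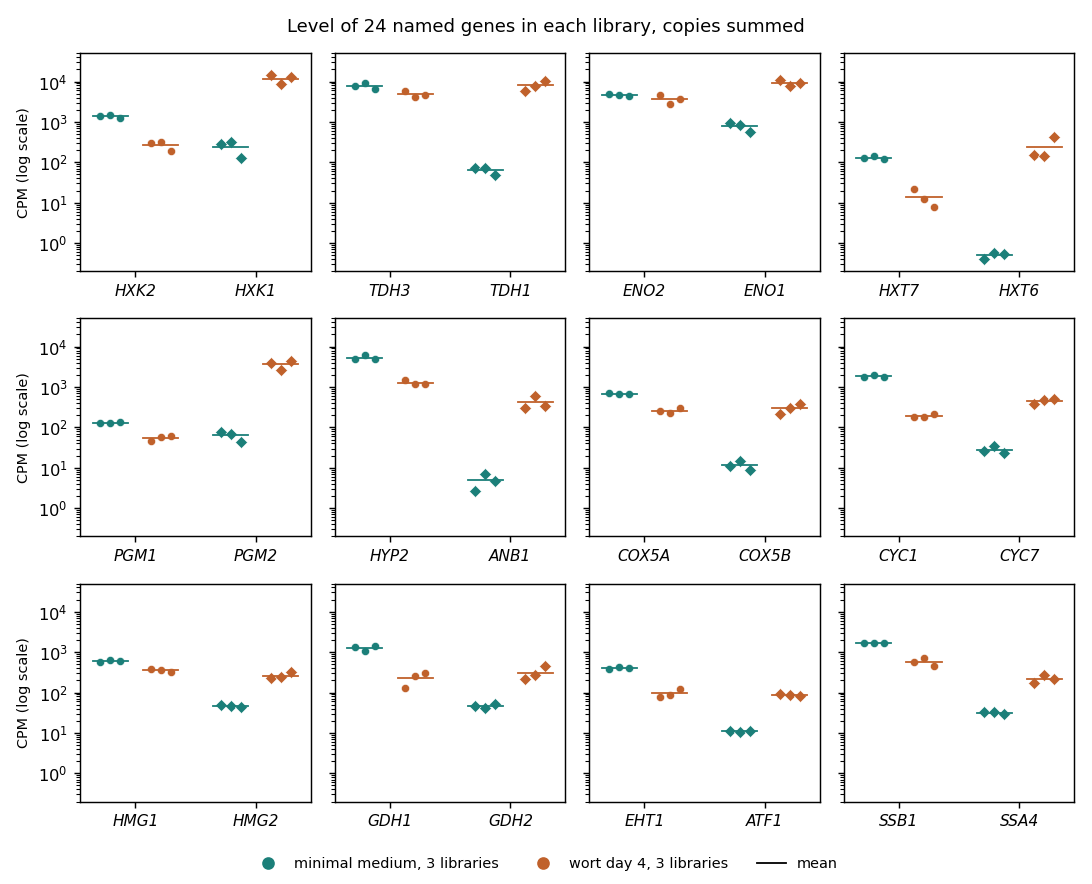
CPM on a log axis of 24 genes in 12 panels, with 1 point per library and the mean of each group as a line. In the panels of HXK1, TDH1, ENO1, ANB1, COX5B and CYC7 the day 4 libraries (orange) lie far above the minimal medium libraries (green), while their partners HXK2, HYP2, COX5A and CYC1 lie the other way round.

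Of 14 genes that lead from pyruvate to ethanol, acetaldehyde and acetate, 8 were lower and 1 was higher (median -1.37). The higher one was PDC1, the main pyruvate decarboxylase, at 11033, 10341 and 16619 against 5000.0, 2835 and 3302 CPM (log2 change 1.77 ± 0.29, adjusted p = 0.0014). ADH1, the main fermentative alcohol dehydrogenase, was at 917, 912 and 766 against 5216, 3459 and 4017 CPM (log2 change -2.29 ± 0.21, adjusted p = 0.00015), and ADH5 (-2.43 ± 0.19) and the mitochondrial aldehyde dehydrogenase ALD4 (-2.88 ± 0.22) were lower too. The cytosolic aldehyde dehydrogenase ALD6 had 242, 306 and 268 against 162, 318 and 182 CPM and was not called (log2 change 0.30 ± 0.27, adjusted p = 0.36), except without day 4 replicate 2 (0.66, adjusted p = 0.021). PDC5, a second decarboxylase, had 41.6, 59.6 and 45.8 CPM in minimal medium and 17, 230.3 and 267 on day 4. Its day 4 replicate 1 lay below, and the other day 4 libraries above, all minimal medium libraries, and it was not called (log2 change -1.81 ± 0.79, adjusted p = 0.082), but it was without that library (-2.34, adjusted p = 3.4e-05). Gluconeogenesis and glyoxylate cycle genes were lower for 11 of 14 (median -3.27) and none was higher. FBP1, fructose-1,6-bisphosphatase, was at 4.21, 4.87 and 4.32 against 27.3, 44.8 and 60.0 CPM (log2 change -3.30 ± 0.31, adjusted p = 0.00016). Of 15 peroxisomal beta-oxidation genes 13 were lower and 1 higher (median -1.81), among them the acyl-CoA oxidase POX1 (5.24, 3.76 and 4.14 against 31.9, 21.2 and 39.2 CPM, log2 change -2.81 ± 0.28, adjusted p = 0.0002). The GPD1 gene of glycerol synthesis was lower (-1.07 ± 0.18), as were 7 more of the 11 glycerol gene names tested. Among these names GPP1 and RHR2 stand for 1 gene, as do GPP2 and HOR2, and they were counted apart. No glycerol gene name was higher, but 1 was without day 4 replicate 1.

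The zinc genes ZRT1 and ZPS1 had the largest rises among the called genes whose groups did not overlap and whose higher group reached 4 log2 CPM. ZRT1, the high-affinity zinc transporter (YGL255W, S. cerevisiae chromosome VII, 20978 to 22108, + strand), stood at 4966, 4182 and 5062 CPM in minimal medium and 146, 39.6 and 35.6 on day 4 (log2 change 6.00 ± 0.64, adjusted p = 0.00024). Day 4 replicate 1 was the highest of its group, and the change was 6.98 without it. ZPS1, a cell wall protein made under zinc shortage, was at 361, 390.1 and 408 against 13.5, 9.36 and 11.4 CPM (log2 change 5.08 ± 0.20, adjusted p = 1.8e-05). The low-affinity transporter ZRT2 (212, 181 and 229 against 33, 44.8 and 38 CPM, log2 change 2.43 ± 0.18, adjusted p = 6.8e-05), the alcohol dehydrogenase ADH4 (508, 518 and 315 against 108, 62.5 and 72.6 CPM, log2 change 2.46 ± 0.29, adjusted p = 0.00033) and ZAP1, the factor that activates these genes when zinc is low (91.1, 67.4 and 103 against 31.7, 29.1 and 33.2 CPM, log2 change 1.47 ± 0.18, adjusted p = 0.00041), rose too. The list as a whole had no single direction, since 8 of its 19 members were higher and 7 lower (median 0.08), with 5 higher without minimal medium replicate 1. The lower members include genes of the IZH family of membrane proteins, which take part in zinc homeostasis. IZH4 was at 2.36, 2.92 and 2.13 CPM against 479, 266 and 321 (log2 change -7.17 ± 0.32, adjusted p = 2.2e-05), and IZH1 (-3.86) and IZH2 (-3.83) were lower too. FET4, a low-affinity iron transporter that also carries zinc, was lower at 129, 124 and 109 against 1041, 1087 and 1071 CPM (log2 change -3.14 ± 0.16, adjusted p = 2.7e-05). For each of these genes the groups did not overlap.

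Most genes known for induction without oxygen were lower in minimal medium. Of 21 tested genes of the hypoxic and anaerobic list 17 were lower, 15 of them 2-fold or more, and 1 was higher (median -2.50). The list also holds regulators of such genes, among them the repressors ROX1 and MOT3. ROX1 had 2346, 1635 and 2496 raw counts in minimal medium and 4141, 5116 and 2929 on day 4. ANB1, the hypoxic form of eIF5A, was at 2.72, 7.2 and 4.67 CPM against 301, 617 and 343 (log2 change -6.44 ± 0.48, adjusted p = 7.1e-05), and its aerobic partner HYP2 at 4896, 6198 and 4931 against 1458, 1184 and 1171 (log2 change 2.07 ± 0.19, adjusted p = 0.00015). COX5B, the hypoxic subunit of cytochrome oxidase, was at 11, 14.4 and 8.82 against 209.9, 309 and 377 CPM (log2 change -4.71 ± 0.30, adjusted p = 5.2e-05), and COX5A at 716, 680.3 and 671 against 249, 222 and 299 (log2 change 1.43 ± 0.17, adjusted p = 0.00036). In both pairs the hypoxic member was lower and the aerobic member higher in every minimal medium library. The same held for cytochrome c, with CYC1 at 1767, 2040.1 and 1809 against 176, 185 and 217 CPM (log2 change 3.28 ± 0.18, adjusted p = 3.4e-05) and CYC7 at 25.7, 33.8 and 22.7 against 385, 489.5 and 494 (log2 change -4.06 ± 0.22, adjusted p = 3.4e-05), and for HMG-CoA reductase, with HMG1 at 0.75 ± 0.15 and HMG2 at -2.50 ± 0.20 on the log2 scale. On the list of aerobic isoforms and heme synthesis genes 2 of 6 were higher, HYP2 and HMG1, and 3 were lower (median -0.14). The lower ones are the heme synthesis genes HEM15 (-1.27 ± 0.20), HEM14 (-0.90 ± 0.15) and HEM1 (-0.47 ± 0.16), and the call of HEM1 was lost without any 1 minimal medium library or day 4 replicate 2, with an adjusted p of 0.089 to 0.13. The cell wall mannoprotein TIR1 (14.5, 11.4 and 14.7 against 509, 333 and 489 CPM, log2 change -5.03 ± 0.25, adjusted p = 2.3e-05) and the heme enzyme HEM13 (-2.66 ± 0.16) were lower as well.

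Respiratory chain genes moved the other way. Of 39 genes of the chain, ATP synthase and the HAP regulators of respiratory genes, 28 were higher in minimal medium and 4 lower (median 0.80). The share of counts of this list was 1.86% ± 0.05 against 1.12% ± 0.17. NDE1, the external NADH dehydrogenase, was at 601, 609.7 and 547 against 226, 134 and 125 CPM (log2 change 1.86 ± 0.25, adjusted p = 0.0006). HAP4, the activator subunit of respiratory genes, was lower, at 235, 152 and 245 against 717, 503 and 836 CPM (log2 change -1.70 ± 0.26, adjusted p = 0.0011). The regulators HAP1 and HAP2 were among the lower members too. Tricarboxylic acid cycle genes were mixed, with 5 higher and 11 lower of 23. The citrate synthase CIT1 was lower (-1.12 ± 0.23), and leaving out minimal medium replicate 1 gave 3 higher and leaving out replicate 3 gave 7 lower.

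Ergosterol genes moved in both directions, and the main fatty acid desaturase was far lower in minimal medium. Of 22 ergosterol genes 11 were higher and 5 lower (median 0.37), with 7 higher without minimal medium replicate 1 or 3 and 3 lower without minimal medium replicate 1 or 2 or day 4 replicate 3. ERG2 (1154, 1262 and 1253 against 422, 437 and 436 CPM, log2 change 1.50 ± 0.15, adjusted p = 0.00018) and ERG6 (1.35 ± 0.16) were higher, while the desaturases ERG3 (581, 499 and 526 against 873, 1173 and 1369 CPM, log2 change -1.09 ± 0.20, adjusted p = 0.0026) and ERG5 (-1.70 ± 0.17) were lower. ERG11, the sterol demethylase, was lower, 1760.4, 1104 and 1684 against 2299.7, 1991 and 2630.3 CPM (log2 change -0.61 ± 0.23, adjusted p = 0.048), but the call was lost without any 1 library other than day 4 replicate 2, with an adjusted p of 0.066 to 0.13. OLE1, the oxygen-requiring fatty acid desaturase, was at 758, 652 and 929 CPM against 8206, 7358 and 10237 (log2 change -3.46 ± 0.23, adjusted p = 5.4e-05). Its activator MGA2 was lower too, 40.7, 38.6 and 37.5 against 401, 298 and 327 CPM (log2 change -3.14 ± 0.17, adjusted p = 3.4e-05).

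Genes of inositol and phospholipid synthesis were higher in minimal medium, 13 of 19 against 2 lower (median 1.13), and took 0.89% ± 0.04 of counts against 0.25% ± 0.03. INO1, which makes inositol phosphate from glucose-6-phosphate, was at 2152, 1681 and 1807 CPM against 189, 82.8 and 129.6 (log2 change 3.81 ± 0.33, adjusted p = 0.00012). ITR1, the inositol transporter, was at 2272, 1973 and 2054 against 432, 505 and 544 CPM (log2 change 2.09 ± 0.17, adjusted p = 9.9e-05). Most genes on the route through phosphatidylserine to phosphatidylcholine were higher: CHO1 (542, 637 and 551 against 119, 102 and 141 CPM, log2 change 2.26 ± 0.18, adjusted p = 9.5e-05), PSD1 (1.92 ± 0.14), CHO2 (2.07 ± 0.45) and OPI3 (1522, 2065 and 1325 against 136, 157 and 350.2 CPM, log2 change 2.93 ± 0.40, adjusted p = 0.00062). PSD2, which encodes a second phosphatidylserine decarboxylase beside PSD1, was not called (81.7, 78.5 and 73.8 against 63.3, 75.8 and 74.3 CPM, log2 change 0.13 ± 0.13, adjusted p = 0.4). OPI1, the repressor of this set, was itself higher (1.13 ± 0.19).

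**Figure D4:**
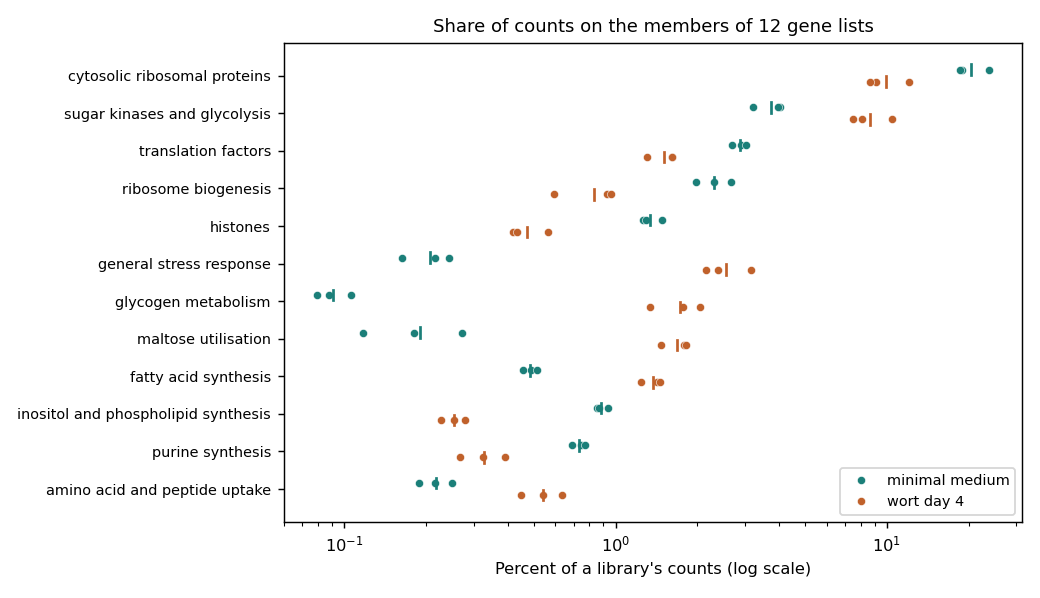
The horizontal axis is the percent of a library's counts, on a log scale, that fell on the members of 12 gene lists, with 1 point per library and a bar at each group's mean. Ribosomal proteins hold 20.4% of counts in minimal medium and 9.96% on day 4, and glycogen genes 0.09% and 1.72%, without overlap of the groups.

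Most amino acid permease genes were lower in minimal medium, whose nitrogen source was ammonium, while the main gene of ammonium assimilation was higher. GDH1, which fixes ammonium into glutamate, was at 1345, 1042 and 1429 CPM in minimal medium and 129.7, 261 and 313 on day 4 (log2 change 2.44 ± 0.33, adjusted p = 0.00063). GDH2, which degrades glutamate, was at 47.7, 41.8 and 51.8 against 219, 269 and 452 (log2 change -2.73 ± 0.29, adjusted p = 0.00024). The ammonium transporter MEP2 was higher, 1017, 1215 and 999.9 against 379, 152 and 687 CPM (log2 change 1.41 ± 0.47, adjusted p = 0.032), but its adjusted p was 0.051 to 0.094 without any 1 minimal medium library or day 4 replicate 1, and its change was 2.03 without day 4 replicate 3. Over the 8 genes of ammonium uptake and assimilation 3 were higher and 2 lower, with 1 higher without any 1 minimal medium library and 1 lower without minimal medium replicate 2 or 3. Of 23 tested amino acid and peptide permease genes 13 were lower in minimal medium and 1 higher (median -1.36). The branched-chain amino acid permeases had almost no reads in minimal medium: BAP3 had 0.565, 0.584 and 0.828 CPM against 396, 207 and 40.7 (log2 change -8.34 ± 0.95, adjusted p = 0.00032, or -7.54 without day 4 replicate 1), and BAP2 had 1.9, 2.4 and 1.66 against 506, 190.2 and 219.9 (log2 change -7.27 ± 0.49, adjusted p = 5.5e-05). The peptide transporter PTR2 (6.47, 6.23 and 8.64 against 182, 109 and 275 CPM, log2 change -4.73 ± 0.37, adjusted p = 8.4e-05) and the broad permeases GNP1 (-3.12 ± 0.42) and AGP1 (-2.86 ± 0.34) were lower. The S-methylmethionine permease MMP1 was the single member called higher (2.00 ± 0.21).

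Genes under nitrogen catabolite repression serve the use of poor nitrogen sources, and several of them were high in 1 day 4 library. Of 24 tested, 5 were higher and 8 lower, beside 29.4% and 31.3% of all genes. Without 1 library the number higher ran from 2 to 9. The number lower ran from 5, without minimal medium replicate 2 or 3, to 8. GAP1, the general amino acid permease, had 294, 342 and 297 CPM in minimal medium and 32.9, 24.4 and 252 on day 4. Only day 4 replicate 3 came near the minimal medium libraries, and GAP1 was not called with it (log2 change 1.60 ± 0.81, adjusted p = 0.12) but was without it (3.45, adjusted p = 4.6e-05). UGA4, a permease for gamma-aminobutyrate, had 1.9, 1.3 and 1.72 against 10.5, 17.2 and 328 CPM (log2 change -6.16 ± 1.45, adjusted p = 0.0074), and without replicate 3 its change was -3.06. The proline permease PUT4 was higher (21.3, 22.5 and 24.1 against 4.43, 3.71 and 14.7 CPM, log2 change 1.59 ± 0.50, adjusted p = 0.026), with an adjusted p of 0.055 to 0.068 without any 1 minimal medium library or day 4 replicate 2, and a change of 2.48 without day 4 replicate 3. Replicate 3 was the highest day 4 library for all 3 permeases. GCN4, the activator of amino acid synthesis, had overlapping libraries, with 1179, 1164 and 1161 against 1443, 981 and 1099 CPM (adjusted p = 0.97).

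Aromatic amino acid and flavour genes changed gene by gene. The mutant had been selected on phenylalanine analogues, and 3 of 13 aromatic synthesis genes were higher and 2 lower (median 0.15), beside 29.4% and 31.3% of all genes. The first enzyme of the pathway has 2 isoforms. ARO3 was lower in minimal medium (569, 633 and 558 against 977, 1102 and 1049 CPM, log2 change -0.83 ± 0.15, adjusted p = 0.0024), and ARO4 was not called (666, 812 and 606 against 534, 569 and 564 CPM, log2 change 0.32 ± 0.17, adjusted p = 0.13). ARO7, chorismate mutase, was higher (105, 116 and 110.1 against 36, 56.5 and 54.4 CPM, log2 change 1.17 ± 0.19, adjusted p = 0.0013), and the transaminase ARO8 lower (-0.86 ± 0.18). In the Ehrlich pathway, the route from amino acids to fusel alcohols, ARO9 had 203, 190.3 and 187 against 73.6, 295 and 202 CPM and was not called (adjusted p = 0.96). The decarboxylase ARO10 had 200.0, 151 and 199.8 against 205, 744 and 567 CPM (log2 change -1.46 ± 0.42, adjusted p = 0.018), but the call was lost without minimal medium replicate 1 or 2 or day 4 replicate 2, with an adjusted p of 0.05 to 0.079. Day 4 replicate 1 was the lowest of its group for both genes, and for ARO10 it lay just above the minimal medium libraries.

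Genes for ester synthesis changed in both directions. ATF1, the main alcohol acetyltransferase that makes acetate esters, was at 10.9, 10.8 and 10.9 CPM in minimal medium and 90.6, 84.5 and 81.4 on day 4 (log2 change -2.97 ± 0.13, adjusted p = 2.2e-05). The groups were far apart and the replicates of each lay close together. ATF2, the second acetyltransferase, went the other way, at 54.9, 47.4 and 63 against 16.7, 31.1 and 31.9 CPM (log2 change 1.05 ± 0.26, adjusted p = 0.0095). Day 4 replicate 1, the library with almost no reads on S. eubayanus chromosome VII, was the lowest day 4 library of ATF2. Whether the missing reads account for that was not tested. The ethyl ester synthases also opposed each other, with EEB1 lower (183, 217 and 150.3 against 464, 406 and 695 CPM, log2 change -1.51 ± 0.25, adjusted p = 0.0015) and EHT1 higher (379, 426 and 404 against 76.1, 85.1 and 125 CPM, log2 change 2.08 ± 0.22, adjusted p = 0.00023). Over the whole list of 16 Ehrlich and ester genes 5 were higher and 7 lower (median -0.47), with 4 lower without minimal medium replicate 2.

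Purine genes were mostly higher in minimal medium, while lists of other biosynthetic genes differed in direction. Of 18 purine genes 11 were higher and 1 lower (median 1.32). The higher ones include ADE17 (849.6, 833 and 785 against 76.5, 197 and 101 CPM, log2 change 2.72 ± 0.35, adjusted p = 0.0005) and ADE1 (761, 997 and 751 against 126, 139 and 135 CPM, log2 change 2.65 ± 0.18, adjusted p = 5.9e-05). The 1 lower call was lost without any 1 minimal medium library or day 4 replicate 2, and 2 were lower without day 4 replicate 3. Of 14 serine, glycine and threonine synthesis genes 7 were higher and 3 lower (median 0.62). SHM2, the cytosolic serine hydroxymethyltransferase, was at 1732, 1442 and 1861 against 161, 271 and 187 CPM (log2 change 3.02 ± 0.25, adjusted p = 9.9e-05) and GCV3, of the glycine cleavage system, at 493, 782 and 383 against 42, 48.3 and 74.7 (log2 change 3.33 ± 0.35, adjusted p = 0.00023). Of 10 pyrimidine genes 5 were higher and 1 lower, the lower one being URA10 (27.1, 32.3 and 18 against 184, 338 and 609.7 CPM, log2 change -3.87 ± 0.47, adjusted p = 0.00039), the minor isoform of the enzyme encoded by URA5. Of 30 sulfate assimilation and methionine genes 14 were higher and 4 lower (median 0.52). The S-adenosylmethionine synthetases SAM1 (955, 1005 and 1199 against 207, 211 and 142 CPM, log2 change 2.49 ± 0.22, adjusted p = 0.00012) and SAM2 (1.77 ± 0.20) and the sulfate permease SUL1 (2.84 ± 0.29) rose. Other amino acid lists showed fewer calls, to be read beside 29.4% higher and 31.3% lower over all genes. Of 13 arginine synthesis genes none was higher and 4 were lower (median -0.18), with 2 higher without day 4 replicate 3. Of 7 histidine genes 3 were higher and 1 lower (median 0.50). Of 10 branched-chain amino acid genes 1 was higher and 3 lower, with 0 to 2 higher and 1 to 2 lower when 1 library was left out. Of 9 lysine genes 3 were higher and 2 lower, with 1 to 3 higher and 1 to 2 lower when 1 library was left out. Of 20 thiamine and vitamin B6 genes 11 were lower and 1 higher (median -0.90), and the higher call was lost without any 1 minimal medium library or day 4 replicate 3. THI20, a kinase of thiamine synthesis, was lower (23.2, 20.2 and 22.4 against 95.6, 232 and 261 CPM, log2 change -3.16 ± 0.37, adjusted p = 0.00033).

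Iron genes moved in parts. Of 18 tested iron uptake genes 7 were higher and 5 lower, beside 29.4% and 31.3% of all genes. The number lower was 3 without any 1 minimal medium library. The high-affinity ferroxidase and permease FET3 (840.0, 649 and 824 against 239, 265 and 172 CPM, log2 change 1.77 ± 0.22, adjusted p = 0.00039) and FTR1 (1.06 ± 0.21), which act as a complex, were higher, and SMF3, which exports iron from the vacuole, was lower (-1.81 ± 0.18). Of 15 phosphate genes 4 were higher and 7 lower, with 1 to 4 higher and 4 to 7 lower when 1 library was left out, and the acid phosphatase PHO5 was lower (11, 6.49 and 10.7 against 65.8, 41.1 and 37 CPM, log2 change -2.35 ± 0.30, adjusted p = 0.0005). The copper metallothionein CRS5 was lower as well (-2.39 ± 0.32).

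HSP30 had the largest fall of the comparison, under the same limits as for ZRT1, yet the list of heat shock and chaperone genes divided evenly. HSP30, a plasma membrane protein that restrains the proton pump (YCR021C, S. cerevisiae chromosome III, 156109 to 157107, - strand), stood at 1.23, 0.973 and 1.42 CPM in minimal medium and 1861, 3436 and 6962 on day 4 (log2 change -11.71 ± 0.69, adjusted p = 3.9e-05). The small heat shock protein HSP26 was at 13.7, 20.5 and 13.9 against 1095, 2117 and 4367 CPM (log2 change -7.30 ± 0.60, adjusted p = 9.9e-05). Day 4 replicate 3 was the highest library for both, and without it the changes were -11.08 and -6.64. Of 29 heat shock and chaperone genes 12 were higher and 13 lower, and the list median of -0.30 was 0.38 without day 4 replicate 3 and 0.03 without minimal medium replicate 3. Lower members include the stress-induced HSP42 (-3.59 ± 0.48) and SSA4 (33.4, 32.5 and 29.8 against 174, 269 and 217 CPM, log2 change -2.78 ± 0.19, adjusted p = 5.9e-05). The higher members include ribosome-bound SSB1 (1652, 1679.5 and 1652 against 560.1, 727 and 466 CPM, log2 change 1.51 ± 0.20, adjusted p = 0.00058) and the mitochondrial chaperonins HSP60 (1.36 ± 0.15) and HSP10 (1.89 ± 0.24).

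Hsp90, the target of the radicicol used to make the mutant, has an inducible gene, HSP82, and a constitutive one, HSC82. HSP82 was at 166, 211 and 169 CPM in minimal medium and 224, 422 and 366 on day 4 (log2 change -0.89 ± 0.25, adjusted p = 0.017), with an adjusted p of 0.055 to 0.071 without minimal medium replicate 1 or 3 or day 4 replicate 2. HSC82 was at 1811, 1781 and 2051 against 1202, 1709 and 1497 CPM and was not called (log2 change 0.36 ± 0.19, adjusted p = 0.13). The groups overlapped for HSC82.

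General stress genes were lower in minimal medium for 18 of 20 and higher for none (median -2.71), with a share of counts of 0.21% ± 0.04 against 2.56% ± 0.53. The cell wall protein SPI1, made as growth stops, was at 23.2, 15.2 and 13.1 against 1941, 3588 and 6575 CPM (log2 change -7.88 ± 0.58, adjusted p = 7e-05). YGP1, a secreted glycoprotein of nutrient limitation, was at 196, 85.8 and 49.1 against 10179, 5028 and 8975 (log2 change -6.19 ± 0.62, adjusted p = 0.00019, or -6.89 without minimal medium replicate 1). HSP12, a membrane-protecting stress protein, had overlapping libraries, at 316, 303 and 127 against 158, 205 and 554 CPM (adjusted p = 0.64). Outside the lists, SPG1, needed for survival in stationary phase, had 0.411, 0.649 and 0.828 CPM against 24.9, 319 and 631 (log2 change -9.01 ± 1.29, adjusted p = 0.00076), FDH1, formate dehydrogenase, 0.205, 0.0649 and 0.237 against 5.55, 30.8 and 57.7 (log2 change -7.44 ± 1.02, adjusted p = 0.00063), and RGI2, a protein of respiratory energy metabolism, 0.205, 0.324 and 0.296 against 4.06, 27.7 and 110.4 (log2 change -7.40 ± 1.31, adjusted p = 0.002). The spread among day 4 libraries was wide for these 3 genes, with replicate 1 the lowest and replicate 3 the highest. Without replicate 3 the changes were -8.09, -6.66 and -5.83. AQY2, an aquaporin, was among the largest rises (25.5, 18.9 and 21.7 against 3.47, 2.03 and 0.752 CPM, log2 change 3.37 ± 0.47, adjusted p = 0.0007).

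Oxidative defence genes were mixed, with 5 higher and 7 lower of 21, beside 29.4% and 31.3% of all genes. The peroxiredoxin AHP1 was higher (2162, 2671 and 3005 against 517, 644 and 747 CPM, log2 change 2.04 ± 0.22, adjusted p = 0.00024) and the phospholipid peroxidase GPX1 lower (9.04, 10.2 and 7.46 against 184, 277 and 506 CPM, log2 change -5.18 ± 0.42, adjusted p = 9e-05). For protein turnover, 15 of 19 vacuolar protease and autophagy genes were lower and none higher (median -1.33), for example the autophagy kinase ATG1 (21.3, 22.8 and 25.8 against 132, 202 and 329 CPM, log2 change -3.25 ± 0.34, adjusted p = 0.00022) and the protease PRB1 (-1.68 ± 0.19). Of 33 proteasome genes 16 were higher and 1 lower (median 0.43), none of the higher ones by 2-fold. The lower one is RPN4, their transcriptional activator, at 117, 131 and 140.2 against 794, 697 and 705 CPM (log2 change -2.50 ± 0.16, adjusted p = 5.3e-05). Cell wall genes were higher for 13 of 29 and lower for 6. The abundant mannoprotein CCW12 (5472, 6675 and 5268 against 1523, 1474 and 2377 CPM, log2 change 1.70 ± 0.24, adjusted p = 0.00073) and PIR1 (1.89 ± 0.26) rose, whereas the flocculin FLO11 fell (16.9, 9.73 and 13 against 382, 215 and 157 CPM, log2 change -4.24 ± 0.39, adjusted p = 0.00015). FLO genes contain repeats shared within the family, so their counts are uncertain.

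Sporulation and mating genes took small shares of the counts in both groups. Of 15 sporulation and meiosis genes 9 were lower in minimal medium and none higher, and together they took 0.010% to 0.011% of counts in each minimal medium library and 0.022% in each day 4 library. Of 18 tested mating and haploid-specific genes 14 were lower and none higher, but 7 or 8 were without any 1 minimal medium library. Their summed share ran from 0.010% to 0.014% in minimal medium and from 0.021% to 0.036% on day 4, where replicate 1 was the highest. Some members stood far above the other day 4 libraries in that replicate, such as BAR1 (782 against 146 and 79 raw counts) and AGA2 (288 against 54 and 16). Others did not, such as FUS3 (166 against 161 and 178). MF(ALPHA)2 did not pass the filter on low counts. Of 10 genes that respond to loss of respiration 2 were higher and 5 lower, with 3 lower without minimal medium replicate 2 or 3, and CIT2, the usual reporter of that response, was lower in minimal medium (488, 501 and 490.0 against 1371, 1257 and 2033 CPM, log2 change -1.66 ± 0.22, adjusted p = 0.00055). The part of these cell states in the results above was not tested.

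The copies of a gene from the S. cerevisiae (Sc) and S. eubayanus (Se) sub-genomes mostly changed together. Of 4040 genes whose copies both passed the filter of the fit over features, 753 had both copies higher, 556 both lower and 45 had opposite calls, and 3194 had the same sign of change. Across genes, which are not independent replicates, the log2 changes of the copies had a Pearson r of 0.79 (n = 4040), and both copies share the same 6 libraries. A test of the difference between the copies called 575 of 4057 genes (14.2%) that had at least 10 counts on each copy on average in 1 group. The Se copy was relatively higher in minimal medium for 326 (8.04%) and relatively lower for 249 (6.14%). This count depends on single libraries. It was 0 without minimal medium replicate 1 or 3 and 8 without replicate 2, where 913, 991 and 989 genes had an unadjusted p under 0.05, and it was 1254, 184 and 799 without day 4 replicates 1, 2 and 3. With the chromosome medians subtracted (limma) it was 1284. Of the 326, 58 have their Se copy on chromosome II, among 509 genes tested there, and 62 have their Sc copy on chromosome IV, among 588. The median change of all features was 0.62 on S. eubayanus chromosome II. Of 340 genes with the Se copy on chromosome VII none was called, though their median difference was 1.38. Day 4 replicate 1 had almost no reads on these copies, so the lack of calls does not show equal change.

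The genes with the smallest p kept their direction in every one of these fits, and kept their call without each day 4 library and with chromosome medians subtracted. Without a minimal medium library their adjusted p was 0.037 to 0.073, so that most of these calls were lost. CYC7 fell in both copies, but further in the Sc copy, which stood at 8.09, 11.2 and 7.04 CPM in minimal medium and 255, 337 and 341 on day 4. The Se copy stood at 16.9, 21.8 and 14.9 against 132, 174 and 169, so that its log2 change was 2.01 ± 0.11 above that of the Sc copy (adjusted p = 0.0044). Both CYC7 copies are 342 bases long, and the Se copy was the higher one in minimal medium and the Sc copy on day 4 in every library. RSB1, a transporter of sphingoid bases, had almost no Sc reads in minimal medium. Its Sc copy was at 0.449, 0.826 and 0.343 against 73.8, 76.5 and 123 CPM and its Se copy at 39.5, 43.3 and 35.2 against 145, 149.5 and 171 (difference 5.43 ± 0.30, adjusted p = 0.0044). BAG7, a GTPase-activating protein for Rho1 (3.75), ZTA1, a quinone reductase (2.12), YSW1, a protein of spore formation (2.07), and RSN1 (1.88) also had the higher relative Se copy in minimal medium.

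In the other direction, NDE1 rose in both copies and more in the Sc copy, with 430.4, 453 and 385 against 114, 66.2 and 62.9 CPM for Sc and 155, 144 and 144 against 113, 73.4 and 66.4 for Se (difference -1.59 ± 0.13, adjusted p = 0.0097). Both NDE1 copies are 1683 bases long, and the Sc copy was over 2 times the Se copy in each minimal medium library and about level with it on day 4. The metal reductase FRE1 (-3.03), the vacuolar carboxypeptidase CPS1 (-1.90) and ARG7 of ornithine synthesis (-1.79) also had the lower relative Se copy in minimal medium. The annotated Se features of FRE1 and HXT3 are fragments of 574 and 135 bases, so these differences need not be between whole genes. The HXT3 fragment (S. eubayanus chromosome II, 920402 to 920536, - strand) had 0.0499, 0.381 and 0.229 CPM in minimal medium and 123, 107 and 291 on day 4 (difference -11.85 ± 0.85). ARO3, picked after its values were seen for its place in the aromatic pathway, was at 262, 283 and 246 against 857, 1021 and 861 CPM in the Sc copy and 292, 336 and 293 against 124, 130.2 and 224 in the Se copy (difference 2.79 ± 0.30, adjusted p = 0.01). Its copies lie on S. cerevisiae chromosome IV and S. eubayanus chromosome II, where day 4 libraries stood apart, and with chromosome medians subtracted the difference was 1.97.

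**Figure D5:**
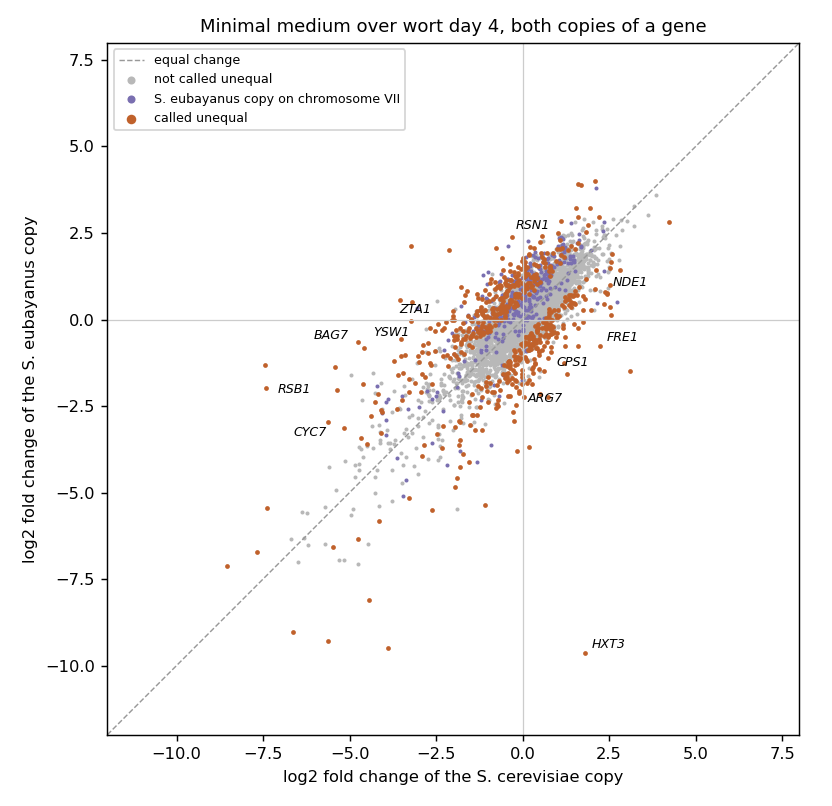
Each point is 1 of 4040 genes, with the log2 change of its S. cerevisiae copy on the horizontal and of its S. eubayanus copy on the vertical axis, and equal change on the dashed line. Genes called unequal are orange, and the HXT3 fragment lies alone at 1.80 and -9.64. Genes with the S. eubayanus copy on chromosome VII are purple and none of them was called. Day 4 replicate 1 had almost no reads on those copies, so this does not show equal change.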

How the data were processed

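The authors deposited raw read counts per feature, and per the submitters' processing notes STAR, SAMtools, featureCounts and DESeq2 were used with build R64. The S. eubayanus assembly, tool versions, strand setting and treatment of reads that match several places are not stated in the labels or notes used here, so near-identical, overlapping and antisense genes are uncertain. Reads were paired-end, 150 bases. All columns mapped to samples, and 0 were left out.

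From the deposited counts, edgeR 4.0.16 (R 4.3.3; filterByExpr with a minimum count of 10 and total of 15, TMM, quasi-likelihood test, Benjamini-Hochberg threshold 0.05) was fitted on the 6 libraries, with copies apart and summed by gene name. Standard errors are the log2 change over the square root of F. Copies were compared through a copy by medium interaction in edgeR. All 3 fits were checked on simulated data. limma 3.58.1 and DESeq2 1.42.0 served as alternatives.

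Members, the 52 gene lists (1175 symbols, 8 absent from the table) and tests were chosen with earlier results of these data known. Named genes are the 10 largest rises and falls, leading and uncalled members of the lists, a set of 36 genes, and the 6 genes in each direction with the smallest p for unequal copies. One named item is not reported here. Copies whose names differ between the sub-genomes were not summed. Replicates were numbered as in the labels.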

Additional observations from a re-analysis of the deposited data

How the results depend on the processing

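Counts of calls over all genes and over all features stayed within 1.5 times those reported under RLE scaling, library totals, DESeq2, no filter, a fit over all 18 libraries and without S. eubayanus chromosome VII. Gene lists were rerun with RLE scaling, library totals and each library left out. Past 1.5 times, library totals gave 1 higher lysine, 2 higher phosphate and 0 higher thiamine genes, and RLE scaling gave 2 lower purine genes. Tested against a change of 2-fold (glmTreat), 600 features were higher and 1151 lower with copies apart, and 450 genes were higher and 833 lower with copies summed. Without 1 library, 1968 to 3113 features were higher and 2186 to 3313 lower with copies apart, and 1575 to 2075 genes were higher and 1651 to 2207 lower with copies summed. The difference in the S. eubayanus share was 0.530 to 1.96 points without 1 library and 0.937 without chromosome VII. Unequal copies numbered 0 to 1254 without 1 library, 873 without chromosome VII and 1284 (limma) with chromosome medians subtracted, a setting chosen after seeing the data. The cause was not tested.

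The labels do not say that a shared replicate number marks a shared culture or day. Deviations of same-numbered libraries from their group means had correlations of 0.020, 0.053 and -0.163. With means of only 3 libraries, these values cannot decide whether the cultures were paired. With the replicate block, 2228 features were higher and 2395 lower apart, 1775 genes higher and 1841 lower summed, and 0 copies (limma) unequal, with 1090 at an unadjusted p under 0.05.

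Of 161 named genes with copies summed, 2 lost their call in the fit over all libraries. The same held for 1 each with no filter, with the replicate block and without S. eubayanus chromosome VII, and for 2 to 9 without 1 library. A call was gained by 1 with DESeq2, 1 in the fit over all libraries and 2 with the replicate block. Among the named genes, only uncalled ones changed sign. ARO9 was -0.072 with library totals and -0.36 to 0.49 without 1 library. HSP12 was -0.61 to 0.46 without 1 library. GCN4 was 0.0078 with DESeq2, 0.019 with no filter, 0.0024 with all libraries, 0.0115 with the replicate block, 0.0057 without chromosome VII and -0.12 to 0.17 without 1 library. Depth limits genes near 1 CPM, such as HXT6 in minimal medium.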
